A study of Mus musculus with 35 samples.

Results

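The comparison is of norepinephrine (NE) with no drug in primary adipocytes grown from the inguinal subcutaneous fat of SV129 mice, the experiment of 9 among the 35 arrays of the series. The members were chosen by their labels: strain SV129, 7 days of culture, and the treatment given as norepinephrine (n = 5, called NE 1, 2, 4, 5 and 6 after the numbers in their titles) or as none (n = 4, control 1, 4, 5 and 6). All cultures began as precursor cells and were kept in medium with serum, insulin and ascorbate. The labels describe treatment in 1 text shared by all 35 samples, which names both drugs of the series, NE and rosiglitazone, each at 1 µM from the first day. The groups were therefore taken from each sample's own treatment entry, and the dose and timing of NE rest on that shared text. Read so, the arrays show cultures kept under NE and not the minutes or hours after a single dose. The other 26 arrays hold cultures of C57BL/6 mice, cultures with rosiglitazone (ROSI), a PPARG agonist, and untreated cultures of 3 days. Each sample was read on 1 Mouse Exon 1.0 ST array, and each value is the log2 intensity of 1 transcript cluster, the probes of 1 gene locus summarised to 1 number. The labels do not say whether replicates came from separate mice or cultures, so the p-values measure the spread between these arrays.

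NE is the transmitter that sympathetic nerves release in fat. It binds beta-adrenergic receptors, which activate adenylyl cyclase, and the cAMP so formed activates protein kinase A. That kinase phosphorylates perilipin and the lipases that release fatty acids from the lipid droplet, and CREB, a transcription factor that binds the cAMP response element of its target genes. In brown and beige adipocytes the same route raises Ucp1, the protein that uncouples respiration so that fat is burned as heat. The lipase gene Lipe had no cluster assigned to that gene alone and was not analysed here.

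Before the comparison, the arrays were set against their labels. Over the 26 other arrays, 17 clusters separated the 2 strains with no overlap, led by Lgr5, Mfap4, Ccn4 and Hc. Among the 9 SV129 arrays, control 5, control 6 and NE 1, 4, 5 and 6 lay on the side of the other SV129 arrays (no higher than the highest of them) for between 12 and 16 of the 17 clusters. The arrays labelled control 1, control 4 and NE 2 lay there for 2, 0 and 1 of them, and on the C57BL/6 side (no lower than its lowest array) for 13, 17 and 14. Lgr5, a receptor of the WNT pathway, gave 8.12, 8.38 and 8.06 on these 3 arrays and between 6.83 and 7.60 on the other 6, where the C57BL/6 arrays ran from 8.15 to 9.04. Mfap4, a protein of elastic fibres, gave 11.10, 10.94 and 11.08 on the 3 arrays and at most 9.96 on the other 6. Over all clusters the array closest to control 1 was a C57BL/6 control (r = 0.9979), and the array closest to NE 2 was control 1 (r = 0.9971). The 3 arrays therefore go against their strain label on these clusters. The reason was not tested, and results are given with all 9 arrays and again without the 3 (4 NE arrays against 2 controls), a division chosen after the data were seen.

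**Figure D1:**
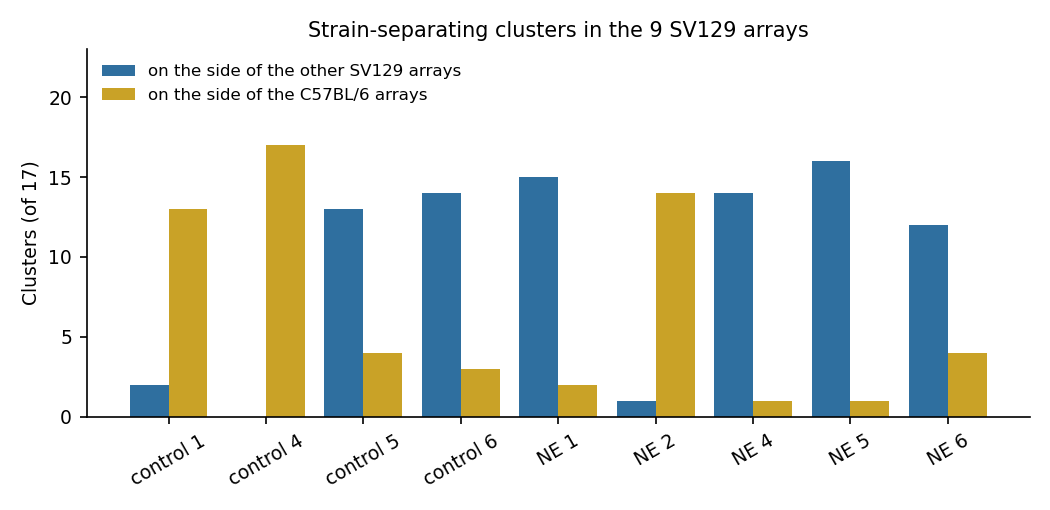
Number of the 17 strain-separating clusters (vertical axis) at which each of the 9 SV129 arrays lies on the side of the C57BL/6 arrays or of the other SV129 arrays. Control 1, control 4 and NE 2 lie on the C57BL/6 side for 13, 17 and 14 clusters, the other 6 arrays for 1 to 4.

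The adipocyte label was set against its markers. Of 15 measured adipocyte identity genes, 1 had a mean below the lower quartile of all clusters, 6.46. That was Lep, the leptin gene, with means of 5.17 in controls and 5.40 with NE. Adipoq, which encodes adiponectin, ran from 11.55 to 12.71 over the 9 arrays. The cultures also held macrophage transcripts, described further on.

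With all 9 arrays, many genes on the lists of fat synthesis, of the lipid droplet and fat breakdown, and of respiration had higher values with NE. Macrophage genes had lower ones, but no cluster passed the test. In limma, 0 of 17958 clusters (0%) reached an adjusted p under 0.05, and the smallest was 0.064. At an unadjusted p under 0.05 there were 2312 clusters, of which 1110 were higher with NE (6.18%) and 1202 lower (6.69%). Counts of list members at that p are to be read against these shares. The median log2 change over all clusters was 0.01. In 373 clusters (2.08%) each NE array lay above each control, and in 466 (2.59%) below. Other models of the same arrays passed between 0 and 1821 clusters, as set out in the closing section.

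These counts rested largely on NE 2. Without it, 389 clusters passed, 279 higher and 110 lower, and without control 1 alone there were 33. Without any other single array, between 0 and 2 passed. Without control 1, control 4 and NE 2, 1017 clusters passed at an adjusted p under 0.05, 506 higher with NE (2.82%) and 511 lower (2.85%), and 1016 of the 1017 had the same sign with all 9 arrays. Of the 389 clusters that passed without NE 2, 307 passed here too. The arrays kept here are part of both other sets, so such agreement is largely built in and is no separate support. Counts of list members that passed without the 3 arrays are to be read against the shares of 2.82% and 2.85%. The comparison without the 3 arrays rests on 2 controls, which were the most alike of all pairs among the 9 arrays (r = 0.9980). NE 2 was left out of it although its label is NE. Control 5 and control 6 also stood apart from control 1 and control 4 on the first principal component, which held 28.1% of the variance (-19.35 and -18.47 against 0.38 and -0.16). Without control 5, control 6 and NE 2, 202 clusters passed.

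**Figure D2:**
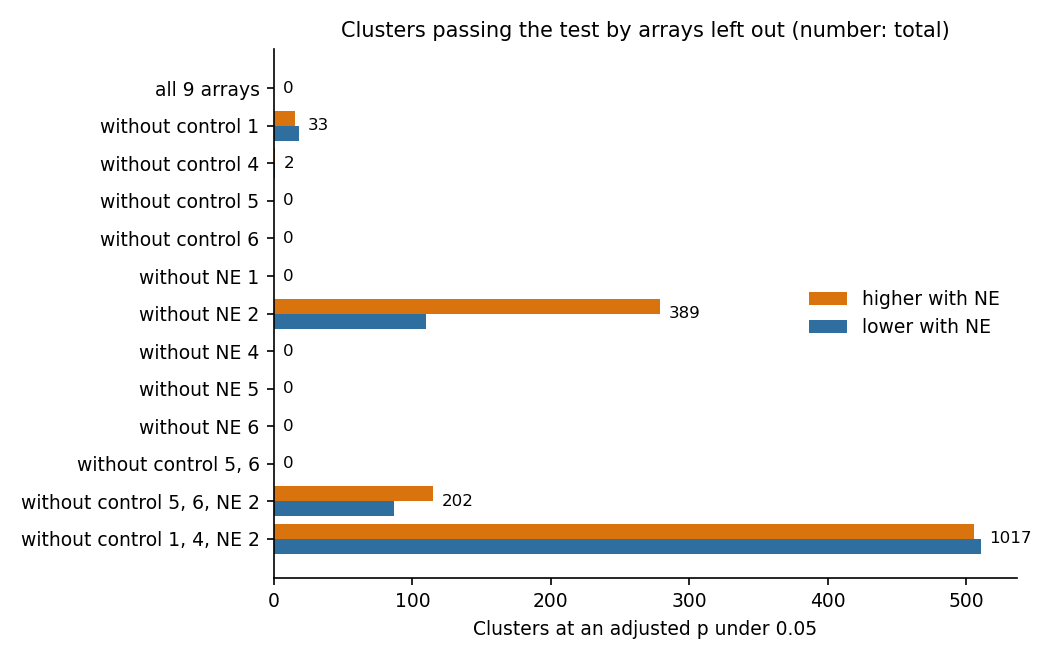
Clusters with a limma adjusted p under 0.05 (horizontal axis), higher or lower with NE, for all 9 arrays and with the named arrays left out; the number beside each pair of bars is the total. The total is 0 with all 9 arrays, 389 without NE 2 and 1017 without control 1, control 4 and NE 2.

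Nr4a3 and Nr4a1 were high in 4 of the 5 NE arrays. Nr4a3, an orphan nuclear receptor and an immediate target of CREB, gave 7.10, 7.13, 7.41 and 7.36 in the controls. With NE it gave 9.17, 8.88, 9.24 and 9.32 in NE 1, 4, 5 and 6, and 7.13 in NE 2. NE 1, 4, 5 and 6 thus lay far above every control, and NE 2 lay among the controls. The log2 change was 1.499 (SE 0.38, adjusted p = 0.145) with all 9 arrays, and 1.77 (SE 0.12, adjusted p = 2.4e-04) without the 3 arrays. Its relative Nr4a1 gave 8.91, 8.82, 8.96 and 8.88 in controls, between 9.40 and 9.67 in the same 4 NE arrays, and 8.71 in NE 2. The change of Nr4a1 was 0.50 (SE 0.17, adjusted p = 0.24), and 0.64 (adjusted p = 0.0078) without the 3 arrays. The family's remaining member, Nr4a2, had log2 changes of 0.61 (adjusted p = 0.37) and 0.75 (adjusted p = 0.0025) in those comparisons.

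Over the whole list of CREB targets the directions were mixed. Of 31 measured members, 4 were higher and 7 lower at an unadjusted p under 0.05, against 6.18% and 6.69% of all clusters. The median change was -0.02. At an adjusted p under 0.05, 6 were higher and 4 lower without the 3 arrays, against 2.82% and 2.85% of all clusters. The higher ones included Fos, a subunit of the AP-1 factor (1.20, adjusted p = 0.0044, against 0.57 and 0.45 with all 9 arrays), and Egr1, an immediate early zinc finger factor (0.84, adjusted p = 0.0033, against 0.38 and 0.49). Bhlhe40, a repressor in the circadian clock, was lower (-0.63, adjusted p = 0.0045), as was Atf3, a stress-induced repressor (-0.47, adjusted p = 0.022). Inhba, which encodes a subunit of activin, gave between 9.29 and 9.51 in controls and between 8.71 and 9.13 with NE, with no overlap (-0.41, SE 0.09, adjusted p = 0.12, and -0.39, adjusted p = 0.056, without the 3 arrays). Crem, on the feedback list, whose ICER product represses CREB targets, gave 7.72 to 7.95 in controls, 8.12 to 8.28 in 4 NE arrays and 7.63 in NE 2 (0.21, adjusted p = 0.49). Per1, a clock gene with a cAMP response element, gave 9.36 to 9.53 and 9.30 to 9.51, so that the groups overlapped almost fully (-0.03, 95% confidence interval -0.18 to 0.11).

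The promoters of 5 of these genes are shown because CREB binds a short element that can be read in them, whole as TGACGTCA or in part as TGACG. RefSeq sequences of build GRCm38.p6 run from 250 bases before to 50 bases after the start of each gene, 5′ to 3′ on the gene's strand. Capitals mark TGACG on either strand (CGTCA on the printed one). The whole element holds both, overlapping, and was found in 1.79% of all 32851 promoters, and TGACG in 20.8%.
Nr4a3 (chr4:48045055-48045354, plus strand): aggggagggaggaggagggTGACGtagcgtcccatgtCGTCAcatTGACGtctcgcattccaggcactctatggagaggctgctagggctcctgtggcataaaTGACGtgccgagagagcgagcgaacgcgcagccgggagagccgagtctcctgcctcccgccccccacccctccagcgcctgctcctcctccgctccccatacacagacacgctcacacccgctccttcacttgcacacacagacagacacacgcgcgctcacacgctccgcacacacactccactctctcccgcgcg
Nr4a1 (chr15:101266596-101266895, plus strand): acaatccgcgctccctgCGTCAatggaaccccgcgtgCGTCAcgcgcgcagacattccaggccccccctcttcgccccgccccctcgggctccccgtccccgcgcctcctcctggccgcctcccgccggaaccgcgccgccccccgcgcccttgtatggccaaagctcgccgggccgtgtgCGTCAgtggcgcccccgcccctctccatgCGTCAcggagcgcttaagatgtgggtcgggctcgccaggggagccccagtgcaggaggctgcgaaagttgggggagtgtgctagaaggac
Ucp1 (chr8:83290098-83290397, plus strand): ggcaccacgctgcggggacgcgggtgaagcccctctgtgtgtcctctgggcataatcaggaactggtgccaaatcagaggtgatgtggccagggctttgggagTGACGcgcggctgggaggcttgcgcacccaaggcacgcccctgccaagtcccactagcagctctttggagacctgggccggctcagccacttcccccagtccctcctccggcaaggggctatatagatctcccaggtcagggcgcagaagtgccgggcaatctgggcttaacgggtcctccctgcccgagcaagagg
Col24a1 (chr3:145292222-145292521, plus strand): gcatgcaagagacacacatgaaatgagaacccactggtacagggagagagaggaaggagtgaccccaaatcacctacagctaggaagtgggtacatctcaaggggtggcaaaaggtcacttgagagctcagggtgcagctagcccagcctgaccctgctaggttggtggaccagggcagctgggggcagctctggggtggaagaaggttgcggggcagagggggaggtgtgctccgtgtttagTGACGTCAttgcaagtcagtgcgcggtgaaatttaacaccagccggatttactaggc
Dio2 (chr12:90738989-90739288, minus strand): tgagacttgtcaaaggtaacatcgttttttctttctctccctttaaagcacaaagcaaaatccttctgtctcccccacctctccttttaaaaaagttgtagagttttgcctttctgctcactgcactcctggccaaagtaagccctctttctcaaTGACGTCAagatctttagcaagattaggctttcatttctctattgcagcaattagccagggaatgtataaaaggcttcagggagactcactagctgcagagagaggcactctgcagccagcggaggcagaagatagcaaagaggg

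The Nr4a3 and Nr4a1 promoters each held TGACG 4 times, first at -231 and at -233 from the start, and Ucp1 held it once, at -147. The whole element stood at -7 in Col24a1, the gene of smallest p among those higher with NE, and at -95 in Dio2, which was lower. Of the 31 measured CREB targets, 24 matched a promoter by symbol and 18 of these (75%) held TGACG, against 23% of all 27025 genes with a promoter. The list was chosen as CREB targets, so this share describes the list and not a response to NE. The 12 genes of smallest p that were higher with NE had it in 2 of 11 matched promoters, those of Ucp1 and Col24a1 shown above. The 12 that were lower had it in 1 of 9. A match is a description of the letters and does not show that a factor was bound.

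The components that make and pass on the cAMP signal had a median change near 0, with members in both directions. Of 29 measured receptors, G proteins, cyclases, kinase subunits and anchors, 2 were higher and 4 lower at an unadjusted p under 0.05 (median change -0.02). The shares of all clusters were 6.18% and 6.69%. In 4 members each NE array lay below each control and in 1 above, against 2.59% and 2.08% of all clusters. Prkaca, the catalytic subunit of protein kinase A, gave 10.05 to 10.34 in controls and 10.28 to 10.55 with NE (0.21, adjusted p = 0.26). Prkar2a, a regulatory subunit that holds the kinase inactive, gave 9.91 to 10.11 and 9.66 to 9.90, with no overlap (-0.25, adjusted p = 0.17). Akap12, which anchors the kinase near the membrane, gave 10.61 to 10.87 and 10.35 to 10.56 (-0.32, SE 0.07, adjusted p = 0.12). Akap12 passed, without the 3 arrays, as lower (-0.46, adjusted p = 0.0072) and Prkaca as higher (0.36, adjusted p = 0.029), each the one member of the list to do so in its direction.

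Among 32 measured genes that dampen the signal or remove NE, 5 were higher and 3 lower at an unadjusted p under 0.05. The shares of all clusters were 6.18% and 6.69%. At an adjusted p under 0.05, 5 and 3 again passed without the 3 arrays, against 2.82% and 2.85% of all clusters. Pde4d, a phosphodiesterase that breaks down cAMP, gave 9.07, 9.27, 8.86 and 8.89 in controls and 9.27, 9.03, 9.40, 9.48 and 9.66 in NE 1, 2, 4, 5 and 6. The groups overlapped through control 4 and NE 2. The change of Pde4d was 0.35 (SE 0.12, adjusted p = 0.26), and 0.58 (adjusted p = 0.017) without the 3 arrays. Pde3b, the phosphodiesterase through which insulin restrains lipolysis, gave 9.61 to 9.83 in controls, 10.15 to 10.49 in 4 NE arrays and 9.45 in NE 2 (0.39, adjusted p = 0.37, and 0.65, adjusted p = 0.010, without the 3 arrays). Pde4b, which acts like Pde4d, had a log2 change of 0.28 (adjusted p = 0.39), and of 0.55 (adjusted p = 0.023) without the 3 arrays. Rgs2, which shortens G protein signals, had 0.27 (adjusted p = 0.24) and 0.43 (adjusted p = 0.040). Maoa, the mitochondrial enzyme that oxidises NE, gave 11.25 to 11.58 and 11.00 to 11.24, with no overlap (-0.26, SE 0.08, adjusted p = 0.19, and -0.33, adjusted p = 0.026, without the 3 arrays).

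**Figure D3:**
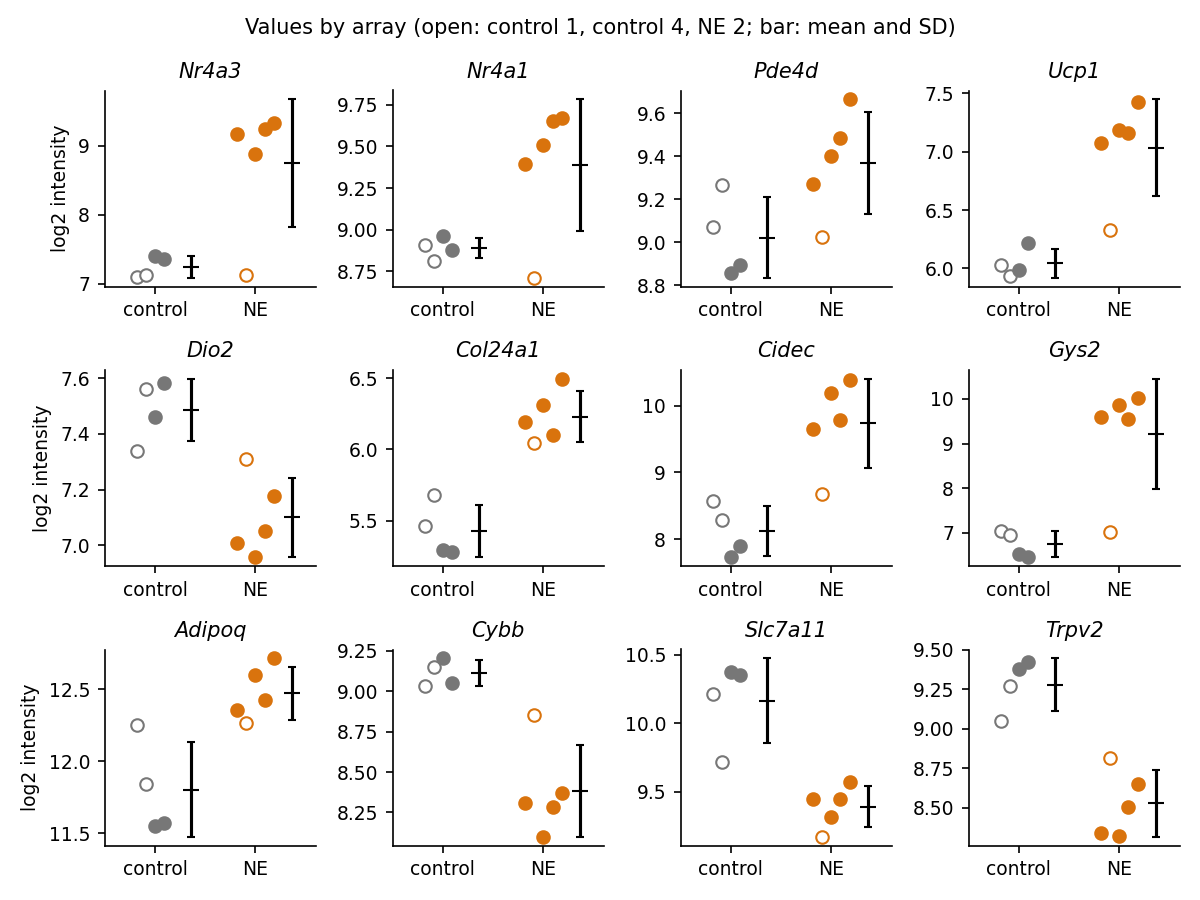
Log2 intensity (vertical axes, each on its own range) of 12 genes in the 4 control and 5 NE arrays; open circles are control 1, control 4 and NE 2, and the bar is the mean with its SD. In Nr4a3, Nr4a1 and Gys2 NE 2 lies at the level of the controls, whereas in Col24a1 and Slc7a11 it lies with the other NE arrays.

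Ucp1 separated the groups and was the thermogenic gene among the 12 higher genes of smallest p. It gave 6.03, 5.94, 5.99 and 6.22 in controls and 7.08, 6.33, 7.18, 7.16 and 7.42 in NE 1, 2, 4, 5 and 6. Each NE array lay above each control, with NE 2 only just so. The fold change was 1.98 (log2 0.99, SE 0.18, adjusted p = 0.086), and the log2 change was 1.11 (adjusted p = 0.0020) without the 3 arrays. The control mean of Ucp1, 6.04, lay below the lower quartile of all clusters (6.46) and its NE mean, 7.03, above it, and whether the control signal was above background was not tested. Otop1, a proton channel of brown fat, gave 7.08 to 7.21 and 7.22 to 7.80 (0.49, SE 0.11, adjusted p = 0.12). Slc36a2, an amino acid transporter that marks brown and beige adipocytes, gave 8.39 to 9.33 and 9.27 to 10.39 (1.08, SE 0.24, adjusted p = 0.12). Both passed without the 3 arrays, at 0.55 (adjusted p = 0.0085) and 1.63 (adjusted p = 0.0012).

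Values of other genes of the thermogenic programme went in either direction. Dio2, which activates thyroid hormone inside brown adipocytes, gave 7.34, 7.56, 7.46 and 7.58 in controls and 7.01, 7.31, 6.96, 7.05 and 7.18 with NE. Its groups did not overlap, and NE lay below (-0.38, SE 0.08, adjusted p = 0.12, and -0.47, adjusted p = 0.015, without the 3 arrays). Ppargc1a, the coactivator that drives mitochondrial biogenesis, gave 9.44 to 9.78 and 9.35 to 9.80 (0.03, 95% confidence interval -0.18 to 0.24), and its sign turned without the 3 arrays (-0.02). Cidea, which coats lipid droplets in brown adipocytes, gave 4.76 to 5.08 and 4.93 to 5.16 (0.06, 95% confidence interval -0.11 to 0.24) and also turned sign without them (-0.04). Both group means of Cidea lay far below the lower quartile of all clusters, so a difference may not have been detectable. Cox8b, a cytochrome oxidase subunit of brown fat, gave 9.05 to 9.51 in controls, 8.81 in NE 2 and between 9.86 and 11.00 in the other NE arrays (0.74, SE 0.34, adjusted p = 0.40, and 0.98, adjusted p = 0.060, without the 3 arrays). Elovl3, a fatty acid elongase induced by cold in brown fat, had a log2 change of 0.27 (adjusted p = 0.28). Over the 31 measured members of the list, 11 were higher and 5 lower at an unadjusted p under 0.05, against 6.18% and 6.69% of all clusters, and the median change was 0.11. In the comparison without the 3 arrays, 4 passed as higher and 2 as lower.

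The genes of the lipid droplet and of lipolysis, the breakdown of stored fat, were mostly higher with NE. Of 20 measured members, 12 were higher and 1 lower at an unadjusted p under 0.05, against 6.18% and 6.69% of all clusters. The median change was 0.31, against 0.01 over all clusters. Cidec, which fuses lipid droplets into larger ones, gave 8.57, 8.29, 7.73 and 7.90 in controls and 9.65, 8.67, 10.19, 9.79 and 10.38 with NE. Each NE array lay above each control, NE 2 by the least, and the fold change was 3.07 (log2 1.62, SE 0.30, adjusted p = 0.090). Pnpla2, the lipase that takes the first fatty acid off a triglyceride, gave 11.68 to 12.03 in controls, 11.90 in NE 2 and 12.34 to 12.68 in the other NE arrays (0.54, SE 0.14, adjusted p = 0.14). Its inhibitor G0s2 gave 9.27 to 9.62 and 9.45 to 10.35 (0.32, adjusted p = 0.42), with NE 6 alone far above. Plin1, the perilipin that guards the droplet until it is phosphorylated, gave 11.11 to 11.32 and 11.39 to 12.07, with no overlap (0.52, SE 0.12, adjusted p = 0.12). Hcar2, a receptor that restrains lipolysis, gave 7.15 to 7.26 and 7.47 to 7.63, also with no overlap (0.31, SE 0.06, adjusted p = 0.094). The lower member was Lipa, the acid lipase of the lysosome (-0.14, adjusted p = 0.27). Without the 3 arrays, 9 of the 20 passed as higher, among them Cidec (2.19, adjusted p = 0.0010), Pnpla2 (0.75, adjusted p = 0.0067) and Plin1 (0.69, adjusted p = 0.015), and Hilpda, a lipid droplet protein induced by hypoxia, as lower (-0.51, adjusted p = 0.042).

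Genes that make fat were mostly higher as well. Of 28 measured genes of fatty acid and triglyceride synthesis, 16 were higher and 0 lower at an unadjusted p under 0.05 (median change 0.22). The shares of all clusters were 6.18% and 6.69%. Without the 3 arrays, 10 passed as higher and 0 as lower, against 2.82% and 2.85% of all clusters. Dgat1, which joins the last fatty acid to a triglyceride, gave 10.44 to 10.95 in controls, 10.85 in NE 2 and 11.66 to 11.96 in the other NE arrays (0.93, SE 0.20, adjusted p = 0.12). Gpd1, which supplies the glycerol backbone, had a log2 change of 0.81 (SE 0.22, adjusted p = 0.17), and Fasn, the fatty acid synthase, of 0.36 (SE 0.09, adjusted p = 0.14). These 3 genes had, without the 3 arrays, 1.32 (adjusted p = 3.1e-04), 0.99 (adjusted p = 0.0064) and 0.48 (adjusted p = 0.016). Gys2, a glycogen synthase, was singled out after its values were seen, for its size. It gave 7.04, 6.94, 6.52 and 6.46 in controls and 9.60, 9.87, 9.55 and 10.02 in NE 1, 4, 5 and 6, but 7.02 in NE 2. Its log2 change was 2.47 (SE 0.51, adjusted p = 0.12), and 3.27 (SE 0.13, adjusted p = 4.5e-05) without the 3 arrays.

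Respiratory genes were mostly higher by small amounts. All 19 measured genes of fatty acid oxidation had a positive log2 change, 11 of them at an unadjusted p under 0.05 and none lower (0), with a median of 0.29. Of all clusters, 6.18% were higher and 6.69% lower at that p. Acadm, which starts the oxidation of medium chains, gave 10.61 to 10.82 in controls, 10.75 in NE 2 and 11.38 to 11.65 in the other NE arrays (0.67, SE 0.16, adjusted p = 0.12). Cpt2, a mitochondrial enzyme of fatty acid oxidation, had a log2 change of 0.57 (SE 0.14, adjusted p = 0.14). Of 29 measured genes of oxidative phosphorylation and the TCA cycle, 17 were higher and 0 lower at an unadjusted p under 0.05, and 27 had a positive change (median 0.20). Idh3a, a subunit of isocitrate dehydrogenase, had a log2 change of 0.50 (SE 0.13, adjusted p = 0.15). Atp5g3, a subunit of the ATP synthase ring that was on neither list but among the 12 higher genes of smallest p, gave 11.93 to 12.001 and 12.25 to 12.54, with no overlap (0.45, SE 0.06, adjusted p = 0.064). Without the 3 arrays, 7 of the 19 and 3 of the 29 passed as higher. Acadm was one of them (0.91, adjusted p = 0.0013).

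**Figure D4:**
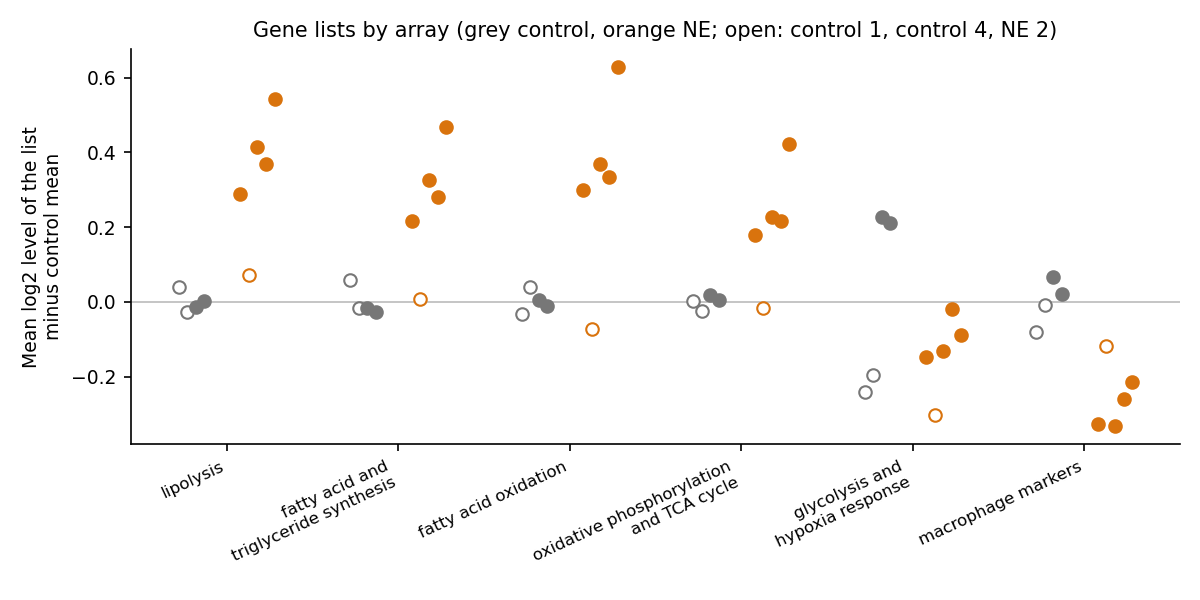
Mean log2 level of 6 gene lists in each array, as the difference from the mean of the 4 controls (vertical axis); open circles are control 1, control 4 and NE 2. For fatty acid oxidation NE 1, 4, 5 and 6 lie 0.30 to 0.63 above the control mean and NE 2 lies 0.07 below it, and for macrophage markers the 5 NE arrays lie 0.12 to 0.33 below it.

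Adipocyte identity genes were higher too, but here the controls divided. All 15 measured members had a positive change, 10 at an unadjusted p under 0.05 (median 0.25), and 7 passed as higher without the 3 arrays. The shares of all clusters that were higher were 6.18% and 2.82%. Retn, which encodes the adipokine resistin, gave 11.83 and 11.39 in control 1 and control 4 but 9.15 and 9.74 in control 5 and control 6, and 12.38, 11.91, 12.69, 12.58 and 13.01 with NE. The spread among controls was thus larger than the step from control 1 to the lowest NE array, and the change was 1.99 (SE 0.48, adjusted p = 0.14), or 3.22 (adjusted p = 1.5e-04) without the 3 arrays. Adipoq gave 12.25, 11.85, 11.55 and 11.57 in controls and 12.26 to 12.71 with NE (0.67, SE 0.14, adjusted p = 0.12). Fabp4, a fatty acid carrier, gave 11.68 and 11.72 in control 4 and control 1, 11.04 and 11.16 in control 5 and control 6, and 11.73 to 12.16 with NE (0.54, SE 0.15, adjusted p = 0.17). Without the 3 arrays Adipoq had 0.96 (adjusted p = 0.0027) and Fabp4 0.90 (adjusted p = 0.0043). Pparg, the master regulator of adipocytes, gave 11.84 to 11.98 and 11.88 to 12.08 (0.05, 95% confidence interval -0.09 to 0.18).

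The controls divided in the opposite sense in the glycolysis and hypoxia list. Its mean level was 0.21 and 0.23 above the control mean in control 6 and control 5, and 0.20 and 0.24 below it in control 4 and control 1, with the 5 NE arrays between 0.02 and 0.30 below. With all 9 arrays, 0 of 22 members were higher and 2 lower at an unadjusted p under 0.05, against 6.18% and 6.69% of all clusters. Without the 3 arrays, which removes the lower pair of controls, 12 passed as lower, against 2.85% of all clusters. The extracellular matrix list went from 3 higher and 2 lower of 31 at an unadjusted p under 0.05 to 14 higher and 1 lower that passed. Among its members Col12a1, a collagen on the surface of fibrils, was lower in both (-0.40, adjusted p = 0.085, and -0.50, adjusted p = 0.012). The counts of these lists depended on which controls were compared.

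Macrophage genes were lower with NE. Itgam, the CD11b integrin, gave 8.32, 8.42, 8.51 and 8.48 in controls and 7.68, 8.08, 7.83, 7.89 and 7.97 with NE (-0.54, SE 0.08, adjusted p = 0.064). Cybb, the catalytic subunit of the phagocyte oxidase, gave 9.03 to 9.20 and 8.0995 to 8.85 (-0.73, SE 0.12, adjusted p = 0.076). Adgre1, a surface antigen that defines mouse macrophages, gave 7.57 to 7.75 and 7.17 to 7.35 (-0.37, SE 0.06, adjusted p = 0.076). None of these 3 genes had overlapping groups. Of 15 measured markers, 0 were higher and 9 lower at an unadjusted p under 0.05, with a median of -0.30. Without the 3 arrays 8 passed as lower, Itgam at -0.65 (adjusted p = 0.0065) and Cybb at -0.86 (adjusted p = 0.0026). The shares of all clusters that were lower were 6.69% and 2.85%. The mean level of the list ran from 8.44 to 8.58 in controls and from 8.18 to 8.396 with NE. Cd68, a lysosomal protein of macrophages, gave 10.50 to 10.72 and 10.26 to 10.56 (-0.13, adjusted p = 0.53). In a culture read as a whole, fewer macrophages and less RNA per macrophage cannot be told apart.

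Of the 12 lower genes of smallest p, Itgam was on the macrophage list. With it stood Il7r (the interleukin 7 receptor), Atp6v0d2 (a proton pump subunit of osteoclasts and macrophages), Clec12a (an inhibitory lectin), Igsf6, Msr1 (a scavenger receptor) and Cd200r1 (an inhibitory receptor of leukocytes), with changes between -0.59 and -0.41. The others were Rnf128, a ubiquitin ligase (-0.62), Trpv2, a cation channel (-0.75), Ptger3, the receptor through which prostaglandin E2 lowers cAMP (-0.37), Mctp1, a calcium-binding membrane protein (-0.45), and Adam22, a membrane protein of synapses (-0.45). All 12 lay in non-overlapping groups, which follows largely from choosing them by p on these arrays. Their adjusted p ran from 0.064 to 0.076. All 12 passed as lower without the 3 arrays, in a fit to part of the same data that is no separate support.

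The interferon and ER stress lists were lower in part. Of 17 measured interferon response genes, 0 were higher and 7 lower at an unadjusted p under 0.05 (median -0.13), against 6.18% and 6.69% of all clusters. Without the 3 arrays 1, Ifit2, passed as lower. Irf7, the factor that amplifies interferon, gave 8.102 to 8.16 and 7.58 to 8.01 (-0.34, SE 0.08, adjusted p = 0.14, and -0.32, adjusted p = 0.16, without the 3 arrays). Of 21 genes of the ER stress and amino acid response, 8 were lower and 3 higher. Slc7a11, the cystine importer, gave 10.22, 9.71, 10.38 and 10.35 in controls and 9.45, 9.17, 9.32, 9.45 and 9.57 with NE (-0.77, SE 0.13, adjusted p = 0.076). Its groups did not overlap, and control 4 and NE 2 were the lowest of each. Mthfd2, a mitochondrial folate enzyme, had a log2 change of -0.36 (SE 0.09, adjusted p = 0.13). Both passed without the 3 arrays, at -0.92 (adjusted p = 0.0011) and -0.43 (adjusted p = 0.034).

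Of the markers of other cell types, those of endothelium were lower for Tek (-0.38, adjusted p = 0.12) and Flt1 (-0.28, adjusted p = 0.145), both in groups that did not overlap and both passing without the 3 arrays, and 11 of 13 did not reach an unadjusted p under 0.05. Smooth muscle and pericyte markers had 1 higher and 1 lower of 12, skeletal muscle markers 2 higher of 9, epithelial markers 1 lower of 12, lymphocyte and mast cell markers 2 lower of 11, and Schwann cell and neuronal markers 1 higher of 8. Preadipocyte markers had 1 higher and 3 lower of 18. These counts, at an unadjusted p under 0.05, stand against 6.18% higher and 6.69% lower of all clusters. Each NE array lay below each control, as for Tek and Flt1, in 2.59% of all clusters. The part of these cell types in the results was not tested.

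Of the 12 higher genes of smallest p, Col24a1 came first. This fibrillar collagen gene gave 5.46, 5.68, 5.29 and 5.28 in controls and 6.19, 6.05, 6.31, 6.10 and 6.50 with NE (0.80, SE 0.11, adjusted p = 0.064). The groups did not overlap, and NE 2 lay only slightly below the other NE arrays. Clybl, a mitochondrial enzyme that clears an itaconate product, had a log2 change of 0.50 (SE 0.07, adjusted p = 0.064), and Slpi, a secreted protease inhibitor, of 0.45 (SE 0.08, adjusted p = 0.076). The rest were Atp5g3, Ucp1, Cidec and Hcar2, given above, and Fign, Lsm3, Uts2r, Fam24a and 4931428L18Rik, with changes between 0.29 and 0.75. All 12 groups were apart, which again follows largely from the choice by p. In the fit without the 3 arrays, to part of the same data, 11 of the 12 passed, Fam24a being the exception (adjusted p = 0.079). Both group means of Col24a1, Fign, 4931428L18Rik, Uts2r and Fam24a lay below the lower quartile of all clusters, as did those of Mctp1 and Clec12a among the lower genes, and whether these signals were above background was not tested.

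The NE effect was then compared with that in C57BL/6 cultures of the same time and NE dose (5 NE and 4 control arrays). There, 0 clusters passed, 625 had an unadjusted p under 0.05 and the smallest adjusted p was 0.51. The fat, respiration and macrophage lists had medians of the same sign there, each smaller in size. They were 0.25 for fatty acid oxidation (0.29 in SV129), 0.14 for oxidative phosphorylation (0.20) and 0.14 for adipocyte identity (0.25). Lipolysis had 0.11 (0.31), fat synthesis 0.11 (0.22) and macrophage markers -0.14 (-0.30). Many of the other lists had opposite signs in the 2 strains, most with small medians, so the sign change is not particular to any of them. Examples are CREB targets, 0.02 (-0.02), ER stress, 0.03 (-0.08), and cAMP machinery, 0.02 (-0.02). WNT, BMP and TGF beta signalling had 0.02 (-0.05) and extracellular matrix -0.003 (0.04). In the model of all 18 arrays, 0 clusters (0%) differed between strains in their NE effect at an adjusted p under 0.05, 1747 (9.73%) did at an unadjusted p under 0.05, and the smallest adjusted p was 0.091. Ucp1 was among the genes of smallest p. In C57BL/6 it ran from 6.08 to 6.21 in controls and from 5.97 to 6.19 with NE (-0.07, SE 0.14), and the strain difference was 1.06 (SE 0.20, adjusted p = 0.091). Nr4a3 ran from 7.03 to 7.32 and from 6.98 to 7.21 in C57BL/6, all below SV129 NE 1, 4, 5 and 6 but on both sides of NE 2 (7.13), and the strain difference was 1.54 (SE 0.43, adjusted p = 0.37). Col24a1 differed by 0.79 (SE 0.14), Slpi by 0.50 (SE 0.09), Trpv2 by -0.74 (SE 0.13) and Slco2b1, an organic anion transporter, by -0.74 (SE 0.14), each with an adjusted p of 0.091. Cox8b had log2 changes of 0.74 (SE 0.34) in SV129 and 0.72 (SE 0.33) in C57BL/6, and the strain difference of 0.02 had a wide error (SE 0.46). Without the arrays labelled SV129 control 1, control 4 and NE 2, 403 clusters differed between strains, 173 more positive and 230 more negative in SV129, and without NE 2 alone there were 40.

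**Figure D5:**
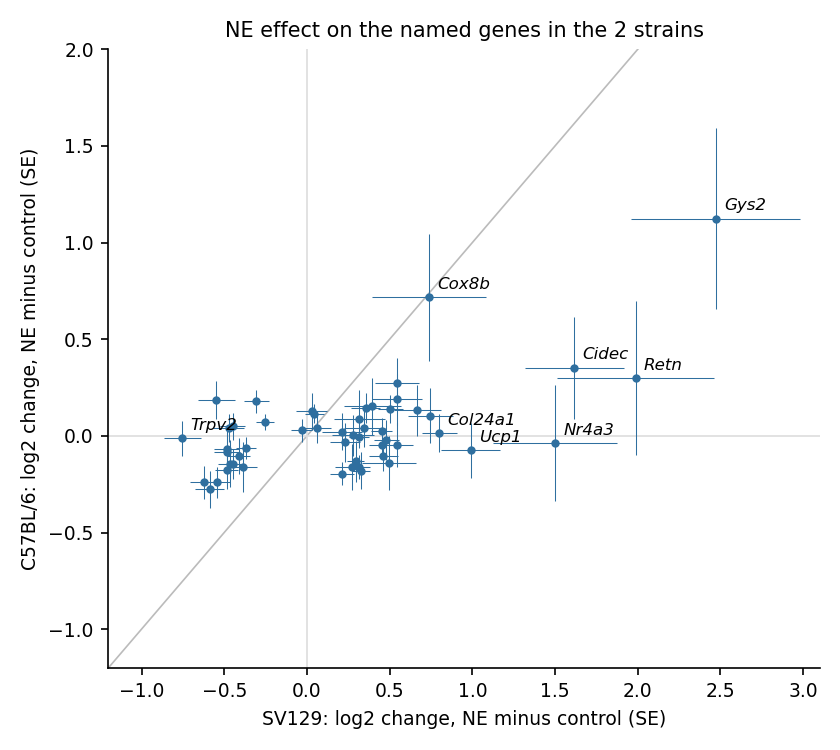
Log2 change with NE in SV129 (horizontal axis) and in C57BL/6 (vertical axis) for the genes chosen by rule and Gys2 and Retn; lines through the points are SE and the diagonal marks equal change. Nr4a3 and Ucp1 lie at 1.499 and 0.99 in SV129 and at -0.04 and -0.07 in C57BL/6, while Cox8b lies near the diagonal.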

How the data were processed

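Total RNA of 9 SV129 cultures was read on Mouse Exon 1.0 ST arrays. Per the submitters' notes, the authors obtained the deposited log2 values by RMA, which corrects background, normalizes across arrays and summarises probes. They ran it in Affymetrix Power Tools, whose version is not given in the sources used here. Because RMA scales all arrays together, a shift common to all genes may not be seen. The medians of the 9 arrays over the clusters used here still differed, from 8.03 in NE 2 to 8.24 in NE 6. The values were used as deposited. Of 17958 clusters, 15621 name 1 gene, 1370 several and 967 none. Where a gene had several clusters, that of highest mean was used. No arrays were identical (0 pairs).

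NE was compared with control in limma 3.58.1 (R 4.3.3) over the 9 arrays with no covariate, two-sided, and p-values of the 17958 clusters were adjusted by Benjamini-Hochberg (threshold 0.05). The strain difference was an interaction in 18 arrays. The code was tested on simulated data. Figures were drawn with Python 3.11.15 and matplotlib 3.10.9.

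Members and the 29 gene lists (580 of 680 entries measured) were chosen with earlier results of these data known. Lists are described by counts and medians, without a test. The genes named are the 12 of smallest p in each direction, since none passed, 24 fixed genes (20 measured), the 6 of smallest p in each direction for the strain difference, and others chosen after their values were seen. Arrays have no sequencing depth, and the number of arrays limits the precision. Alternatives were other thresholds, models, normalizations, filters and arrays left out.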

Additional observations from a re-analysis of the deposited data

Results flagged for a closer look

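Among 166 groups of 4 or 5 arrays checked for one array far from the rest, 12 had one, where chance gives about 1 in 20. The groups are the controls and the NE arrays of the 83 named genes. Many of these genes were chosen by p on these arrays or after their values were seen, among them Gys2, Dgat1 and Cd55. Genes read on the same array are also not independent, so the count is a description and not a test. NE 2 accounted for 7 of the 12. It was low for Nr4a3 (7.13), Nr4a1 (8.71), Crem (7.63), Gys2 (7.02), Dgat1 (10.85) and Cd55, a preadipocyte surface protein (10.72), and high for Igsf6 (7.92), on each occasion toward the level of the controls. Control 4 was low for Cidea (4.76) and Cox8b (9.05), control 1 for Crem (7.72) and control 6 for Sdhd, a subunit of succinate dehydrogenase (10.26), and NE 6 was high for G0s2 (10.35).

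One array outside the comparison carried the Nr4a3 level of the NE arrays. Nr4a3 was 9.27 in ROSI replicate 1 of SV129, against 6.98 to 7.50 in the other 4 SV129 ROSI arrays and at most 7.41 in the SV129 controls. Over all clusters its closest arrays were NE 4 (r = 0.9983) and NE 5 (r = 0.9981). The reason was not tested.

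Among the 83 named genes, which are not a sample of all clusters, there were 7 in which all NE arrays of SV129 lay on one side of their control mean and all NE arrays of C57BL/6 on the other. All but Mthfd2 had been named for a small p of the strain difference, so that this pattern restates the choice, and its share over all clusters was not computed. The strain differences in log2 change were -0.74 for Slco2b1, -0.58 for Mthfd2, -0.50 for Adam22, -0.48 for Zfp516, -0.33 for Syne1, 0.47 for Kcnj12 and 0.41 for Tmem108. In limma none passed, with adjusted p from 0.091 to 0.24.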

How the results depend on the processing

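The count of 0 clusters for NE in SV129 was 0 too at a threshold of 0.01, with a minimum change of 1.5-fold, an intensity trend, robust moderation, the mean over the clusters of a gene, and without control 5 and control 6. It was 3 (2 higher, 1 lower) after quantile normalization, 3 (3 higher) after median centring, 7 (2 higher, 5 lower) among the brightest 13468 clusters, 331 (163 higher, 168 lower) with all 35 arrays in one model, 418 (210 higher, 208 lower) with 18 arrays and 1821 (789 higher, 1032 lower) with array weights. Leaving out one array gave 0 to 389. At an unadjusted p under 0.05, 1318 higher and 1671 lower followed quantile normalization and 1079 higher and 1609 lower median centring. After seeing the data, 1017 were counted without control 1, control 4 and NE 2, and 202 without control 5, control 6 and NE 2.

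Whether replicate numbers pair the samples could not be decided. Correlations of deviations from the group mean ran from -0.12 to 0.30, and only in replicate 5 was the NE array of the same number the closest. These few pairs cannot settle it, as those of replicates 1 and 4 hold control 1 and control 4, which go against their strain label. With the replicate number as a block, where NE 2 has no partner and so adds nothing to the difference, 193 clusters passed (131 higher, 62 lower), and the strain difference had 6.

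For the strain difference, 0 clusters became 4 with all 35 arrays, 3 after quantile normalization, 6 after median centring and 403 without control 1, control 4 and NE 2. It was 0 to 40 with one array left out, and 0 at a threshold of 0.01 and without control 5 and control 6.

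Of 1981 gene values under alternatives, 1587 kept direction and side of the threshold, 386 kept direction and passed, and 8 changed sign. Those were Ppargc1a with array weights (-0.0244), without control 1 or NE 6 (range with one array left out -0.0213 to 0.0967) and without control 1, control 4 and NE 2 (-0.0171), Cidea without control 4 (range -0.0137 to 0.0945) and without those 3 arrays (-0.0401), and Per1 without control 5 and control 6 (0.0176) and without those and NE 2 (0.0421). Of 192 values of the strain difference none changed sign (0). The macrophage median went from -0.296 to -0.379 with the replicate block, and ran from -0.379 to -0.248 with one array left out. That of the cAMP machinery became 0.0475 without control 5 and control 6 and 0.0440 without those and NE 2. The medians of the other 8 of 10 lists followed through the alternatives moved by less than the spread between arrays. Outside those 10, the median of the glycolysis and hypoxia list went from -0.15 to -0.31 and that of the extracellular matrix list from 0.04 to 0.20 without control 1, control 4 and NE 2.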

Other observations

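Some secreted proteins outside the lists' themes were far higher in the comparison of NE 1, 4, 5 and 6 with control 5 and control 6, and were chosen here after their values were seen. Reg1, a secreted lectin-like protein, had a log2 change of 3.27 (1.67 with all 9 arrays), the acute phase gene Orm1 of 1.96 (1.32), Hp, which encodes haptoglobin, of 1.78 (1.00), and Cxcl13, a B cell chemokine, of 2.17 (0.99). Vdr, the vitamin D receptor, had 1.56 (1.38) and Klb, the coreceptor of FGF21, 1.89 (1.21). Among the lower genes were Cmtm4, a membrane protein (-1.02, and -0.69 with all 9 arrays), and Tlr13, a receptor for bacterial RNA (-0.93, and -0.63). In limma all of these passed without the 3 arrays and none with all 9, and all but Cmtm4 and Tlr13 had overlapping groups.

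Among lists not described above, 6 of 25 cell cycle genes were higher and 0 lower at an unadjusted p under 0.05 with all 9 arrays (median 0.10), led by Cdkn2c, a kinase inhibitor (0.81, SE 0.25). Circadian clock genes had 0 higher and 3 lower of 15, adipokines and secreted signals 6 higher and 1 lower of 19, inflammatory mediators 2 and 3 of 29, WNT, BMP and TGF beta signalling 3 and 4 of 28, matrix proteases and inhibitors 0 and 3 of 20, and oxidative stress genes 1 and 1 of 19. Of the sex-linked genes 2 were measured, and 0 were higher or lower. All these counts stand against 6.18% higher and 6.69% lower of all clusters.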
